A study of Mus musculus with 6 samples.

Results

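The genes described here act in the removal of mitochondria and other organelles, a step by which lens fiber cells become clear. They are Bnip3, Bnip3l, Fundc1, Phb2, Pink1, Vdac1, Hif1a and Plaat3, chosen by name and matched by gene symbol. Plaat3 has the older name Pla2g16, so the 9 symbols searched named 8 genes, all of which were found among the 13931 genes of the deposited table. All 8 also passed the expression cut-off used for calls, an average above 1 log2 CPM (read counts scaled to the normalized size of each library), as did 10640 genes in all.

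Mitophagy is the enclosure of mitochondria in autophagosomes and their breakdown in lysosomes. Receptors in the mitochondrial membranes, among them the proteins of Bnip3, Bnip3l and Fundc1 at the outer and of Phb2 at the inner membrane, bind the autophagosome directly, while the kinase encoded by Pink1 marks damaged mitochondria for removal through ubiquitin. In the lens, Bnip3l is required for the loss of mitochondria from fibers, and the phospholipase encoded by Plaat3 breaks down organelle membranes in fibers under the control of the transcription factor Hsf4.

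Whole lenses taken at birth (P0) were sequenced in 3 Control and 3 Celf1cKO libraries, each from 2 pooled lenses. Celf1 encodes an RNA-binding protein that acts on the stability, splicing and translation of its target mRNAs. Celf1cKO mice carried 1 germline knockout allele (Celf1lacZKI), 1 allele with a loxP-flanked exon (Celf1flox) and the Cre transgene Pax6GFPCre, which is active in the lens and pancreatic lineage from the lens placode stage onward. By the labels, Control mice were Celf1lacZKI/+, in which case the knockout allele is shared by both groups and the Control lenses also have a single intact Celf1 copy, whereas by the methods of the study the usual controls were Celf1flox animals that lacked Cre. Which of these the Control lenses were is not settled, and all mice were of a mixed C57BL/6J and FVB background. The libraries held between 40694454 and 44387151 reads as recovered from the steps of the values.

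Promoters of the 3 genes with the smallest adjusted p-values are shown because Bnip3 is a known target of HIF-1, the oxygen-regulated transcription factor whose alpha subunit Hif1a encodes. Each window runs from 250 bases before to 50 bases after the transcription start, written 5′ to 3′ on the strand of the gene from the RefSeq table for GRCm38.p6. The Bnip3 window is chr7:138909457-138909756 on the minus strand, the Vdac1 window is chr11:52360601-52360900 on the plus strand and the Plaat3 window is chr19:7557209-7557508 on the plus strand. Vdac1 and Plaat3 each have 2 listed starts, of which the first is shown. Capitals mark the letters ACGTG on either strand (CACGT when read on the other strand), which lie at the core of many sites bound by HIF-1 and overlap the E-box CACGTG that other factors bind.
Bnip3 promoter: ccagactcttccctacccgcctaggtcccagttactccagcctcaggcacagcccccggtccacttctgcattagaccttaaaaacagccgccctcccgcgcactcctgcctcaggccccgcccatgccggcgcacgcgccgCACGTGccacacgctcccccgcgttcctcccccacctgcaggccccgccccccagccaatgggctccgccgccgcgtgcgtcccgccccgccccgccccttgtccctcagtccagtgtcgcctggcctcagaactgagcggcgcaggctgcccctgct
Vdac1 promoter: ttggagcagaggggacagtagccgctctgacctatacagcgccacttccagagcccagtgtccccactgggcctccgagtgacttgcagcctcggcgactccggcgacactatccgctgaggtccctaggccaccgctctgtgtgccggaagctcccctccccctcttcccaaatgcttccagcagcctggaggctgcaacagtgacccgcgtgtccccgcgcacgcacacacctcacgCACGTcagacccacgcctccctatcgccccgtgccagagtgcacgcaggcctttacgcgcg
Plaat3 promoter: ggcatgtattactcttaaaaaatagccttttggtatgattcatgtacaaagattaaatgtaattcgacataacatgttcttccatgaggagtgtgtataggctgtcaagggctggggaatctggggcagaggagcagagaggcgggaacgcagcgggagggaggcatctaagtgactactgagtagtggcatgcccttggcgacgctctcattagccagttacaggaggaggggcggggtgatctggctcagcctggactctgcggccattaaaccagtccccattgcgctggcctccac
In the Bnip3 window the letters stood 108 bases before the start as the palindrome CACGTG, and in the Vdac1 window they stood 11 bases before it. The Plaat3 window held no match. Of the 8 genes, 7 had an entry in the table with 9 promoters between them, and Bnip3l had no entry. ACGTG occurred in 4 of the 9 promoters, 1 each of Bnip3, Vdac1, Phb2 and Hif1a, and in 19.6% of all 32851 promoters in the table. The matches describe these letters only and were not tested as binding sites.

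CELF1 binds GU-rich elements in RNA, so the 3′ UTRs of the 8 genes were searched for the letters TGTTTGT on the strand of the gene. A single match was found in Bnip3 and another in Hif1a, and the other 6 genes had no match in their annotated 3′ UTR. The Bnip3 match lies at chr7:138891229-138891258 on the minus strand and the Hif1a match at chr12:73945746-73945775 on the plus strand (GRCm38, GENCODE M21), each shown with the match in capitals.
Bnip3 3′ UTR site: ctgaattctctTGTTTGTatttaaatctta
Hif1a 3′ UTR site: tcagttgttgtTGTTTGTtgggtttttgtt
Among 3′ UTRs of like length, 24% held a match for the length of Bnip3 and 36.8% for that of Hif1a, so matches of this kind were common.

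The level of Celf1 was examined first. Control libraries 1 to 3 held Celf1 at 9.95, 9.94 and 9.34 log2 CPM and Celf1cKO libraries at 8.93, 7.66 and 7.83, and the groups did not overlap. Its log2 fold-change was -1.60 (SE 0.335, adjusted p = 0.0269 by limma), and Celf1cKO library 1 kept the highest level of its group. The call was lost when any library other than Celf1cKO library 1 was left out, with adjusted p-values up to 0.108. Calls over all expressed genes fell in the same settings, from 1030 to between 1 and 596. Summed fiber markers (10 of the 12 listed were in the table) ranged from 150195 to 178378 CPM in Control and from 118132 to 128327 in Celf1cKO lenses, against 1418 to 1565 and 793 to 1068 for 9 epithelial markers. Because whole lenses were used, the levels below are those of fibers and epithelium together, and fewer cells of a type cannot be told apart from less RNA per cell. Vascular markers, 8 of 8 lower by their mean in Celf1cKO lenses, summed to 97.1 to 116 CPM in Control libraries and to 109, 23.8 and 53.7 CPM in Celf1cKO libraries 1, 2 and 3. Macrophage markers were low (3.79 to 9.60 and 4.94 to 8.71 CPM), as were those of retina, pigment epithelium and ciliary body (30.4 to 58.2 and 22.5 to 46.0 CPM) and of cornea and skin (5.84 to 6.92 and 4.32 to 5.31 CPM). Of the erythroid markers, only Alas2 was in the table, at up to 1.35 CPM. No marker present in the table was at 0 reads in any library.

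None of the 8 genes was called by limma, against 9.68% of the 10640 expressed genes (6.24% as elevated and 3.44% as reduced). A call required an adjusted p-value under 0.05, an absolute log2 fold-change above 0.58 and an average log2 CPM above 1. The study applied these cut-offs to edgeR results, so its own calls can differ. At an adjusted p-value under 0.05 with no fold cut-off, 1 of the 8 (Vdac1) passed, against 14.6% of expressed genes, and 3 (Vdac1, Plaat3 and Bnip3) had an unadjusted p-value under 0.05. The fold cut-off alone was passed by Bnip3 (+0.70) and Plaat3 (-0.77). The 3 Control and 3 Celf1cKO libraries did not overlap for Vdac1, Fundc1 and Plaat3, which is 3 of 8 genes against 40.0% of expressed genes. With the replicate number of the labels as a block, Bnip3 was called as elevated and Plaat3 as reduced, 2 of 8 genes against 12.0% of expressed genes. This block rests on the shared numbers and on deviations seen in these data, not on a described design. The median log2 fold-change of the 8 genes was 0.14, with 5 positive and 3 negative, against 0.004 over all expressed genes.

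**Figure D1:**
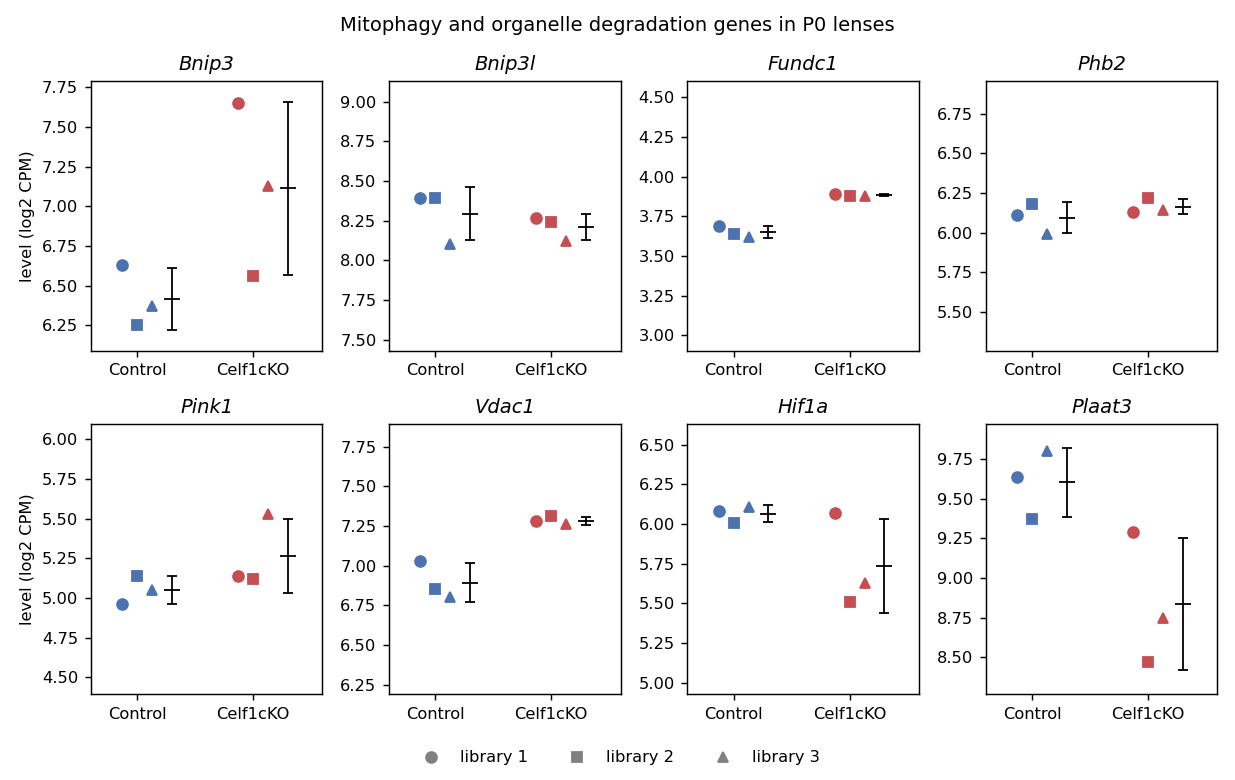
Level of each gene in log2 CPM (y axis, each panel spanning the same range of 1.7 log2 units) in the 3 Control (blue) and 3 Celf1cKO (red) libraries, with symbols for library numbers and black bars for the mean and SD. Bnip3 and Plaat3 spread most among the Celf1cKO libraries (6.56 to 7.65 and 8.47 to 9.29), and Vdac1 and Fundc1 lay higher in every Celf1cKO library.

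Among the 4 receptors, Bnip3 showed the largest positive difference and the widest spread. Bnip3 (ENSMUSG00000078566, chr7:138890836-138909519, minus strand) measured 6.63, 6.25 and 6.37 log2 CPM in the Control libraries, in the order of their numbers, and 7.65, 6.56 and 7.13 in the Celf1cKO libraries. Celf1cKO library 1 was the highest, and Celf1cKO library 2 fell just below Control library 1, so the groups overlapped. The log2 fold-change was +0.70 (SE 0.255, 95% interval 0.10 to 1.29, 1.62-fold), and the adjusted p-value was 0.117 without and 0.0308 with the replicate block. Within each replicate number the Celf1cKO library was the higher of the pair. The difference ranged from 0.43 without Celf1cKO library 1 to 0.97 without Celf1cKO library 2, and in the latter case it was called (adjusted p = 0.0371), as were 4.10% of expressed genes. The exact permutation test gave p = 0.2. The Bnip3 locus overlaps the genes Gm45507 and Gm18258 on the opposite strand, and the strand setting of the read counting is not given in the sources used here.

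Bnip3l, which encodes the receptor NIX, did not pass the test. Its levels were 8.39, 8.39 and 8.10 log2 CPM in Control libraries and 8.27, 8.24 and 8.12 in Celf1cKO libraries (ENSMUSG00000022051, chr14:66985239-67008877, minus strand). All 3 Celf1cKO libraries lay within the Control range, with a log2 difference of -0.08 (95% interval -0.33 to 0.16, adjusted p = 0.629). A pseudogene of Bnip3l is annotated, and only uniquely mapped reads were kept by the authors.

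The level of Fundc1, a receptor regulated by phosphorylation under hypoxia, was the lowest of the 8 genes. It measured 3.69, 3.64 and 3.62 log2 CPM in Control libraries and 3.89, 3.88 and 3.88 in Celf1cKO libraries (ENSMUSG00000025040, chrX:17556564-17572325, minus strand), from 463 to 493 and 635 to 721 reads. The groups did not overlap and the spread within each was small, yet the difference of +0.23 (SE 0.107, 95% interval -0.02 to 0.48) did not pass the test (adjusted p = 0.195). The limma test borrows its variance in part from other genes of like level, so a small spread among 3 libraries counts only in part.

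Phb2 encodes a prohibitin of the inner membrane that is exposed to the autophagosome when the outer membrane ruptures. It stood at 6.11, 6.18 and 5.99 log2 CPM in Control libraries and at 6.13, 6.22 and 6.14 in Celf1cKO libraries (ENSMUSG00000004264, chr6:124712336-124716950, plus strand). The groups overlapped, and the log2 fold-change of +0.07 had a 95% interval of -0.13 to 0.27 (adjusted p = 0.62). The Phb2 locus overlaps Gm23547 on the same strand and Gm15884 on the opposite strand, and their part in its level was not tested.

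Pink1 was measured at 4.96, 5.14 and 5.05 log2 CPM in Control libraries and at 5.14, 5.12 and 5.53 in Celf1cKO libraries (ENSMUSG00000028756, chr4:138313409-138326307, minus strand). Celf1cKO library 3 alone stood apart from the rest. The log2 fold-change was +0.21 (95% interval -0.09 to 0.52, adjusted p = 0.314), and it was 0.08 without Celf1cKO library 3. The Pink1 locus overlaps Mir7019 and Gm27646 on the same strand, and their part in its level was not tested.

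Vdac1 encodes a channel for metabolites through the outer mitochondrial membrane, and its protein is ubiquitinated on damaged mitochondria. It was at 7.03, 6.85 and 6.80 log2 CPM in Control libraries and at 7.28, 7.31 and 7.26 in Celf1cKO libraries (ENSMUSG00000020402, chr11:52360860-52389397, plus strand). Every Celf1cKO library lay above every Control library. The log2 fold-change of +0.39 (SE 0.0852, 95% interval 0.19 to 0.59, 1.31-fold) passed the test (adjusted p = 0.0304 by limma, 0.035 with the replicate block) but not the fold cut-off. The adjusted p-value rose above 0.05 without Control library 2 (0.105), Control library 3 (0.0751), Celf1cKO library 2 (0.105) or Celf1cKO library 3 (0.124), while the fold-change stayed between 0.35 and 0.46. In these settings calls over all expressed genes fell as well, from 1030 to between 1 and 438.

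The difference in Hif1a moved most when Celf1cKO library 1 was left out. Hif1a was at 6.08, 6.01 and 6.11 log2 CPM in Control libraries and at 6.07, 5.51 and 5.63 in Celf1cKO libraries 1 to 3 (ENSMUSG00000021109, chr12:73901375-73947530, plus strand). Celf1cKO library 1 stood among the Control libraries and the other two below them. The log2 fold-change was -0.33 (SE 0.146, 95% interval -0.67 to 0.01, adjusted p = 0.181), and without Celf1cKO library 1 it was -0.50 with an adjusted p-value of 0.0122, still short of the fold cut-off. In that setting 18.0% of expressed genes were called, against 9.68% with all libraries. Without Celf1cKO library 2 the Hif1a value was -0.22. The Hif1a locus overlaps Gm49321 on the same strand and Gm15283 on the opposite strand, and their part in its level was not tested.

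Plaat3 was the most abundant of the 8 genes, with 17278 to 35178 reads in a library. Its levels were 9.64, 9.37 and 9.80 log2 CPM in Control libraries and 9.29, 8.47 and 8.75 in Celf1cKO libraries 1 to 3 (ENSMUSG00000060675, chr19:7557459-7588545, plus strand). The groups did not overlap, although Celf1cKO library 1 came within 0.1 log2 units of Control library 2. The log2 fold-change was -0.77 (SE 0.213, 95% interval -1.26 to -0.27, 0.588-fold), with an adjusted p-value of 0.0587 without and 0.0283 with the replicate block. Leaving out Celf1cKO library 1 gave -0.99 and a call (adjusted p = 0.00794), in a setting where 18.0% of expressed genes were called. Celf1cKO library 1, which had the highest Plaat3, Hif1a and Bnip3 of its group, was also the one with the highest Celf1 and vascular marker levels, and the part of either in these values was not tested.

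**Figure D2:**
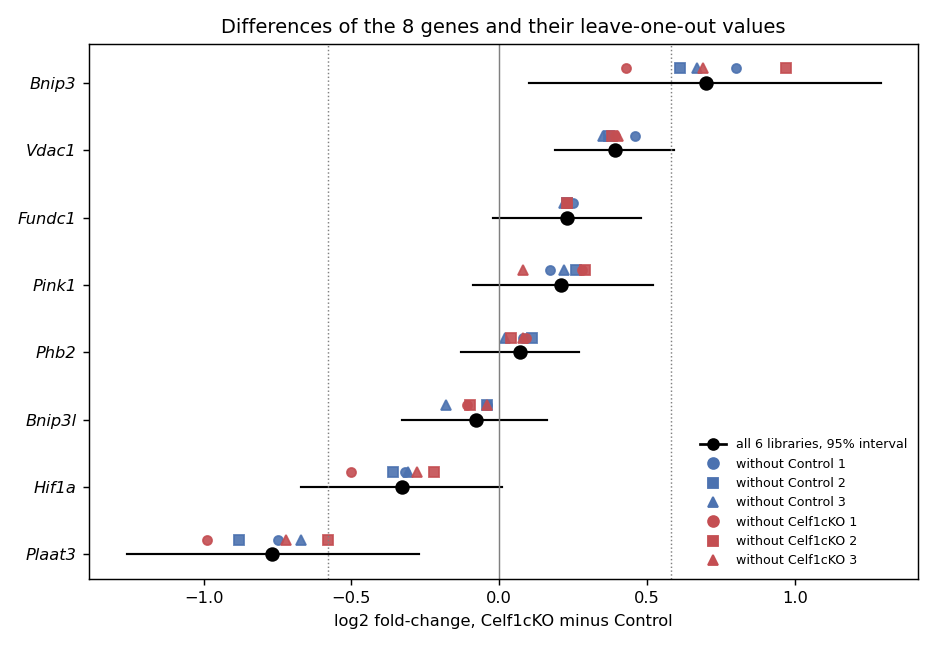
Log2 fold-change of each gene (x axis, Celf1cKO minus Control) with its 95% interval from limma (black), and the values after each library was left out in turn (colored symbols above). Dotted lines mark the fold cut-off of 0.58. Bnip3 moved between 0.43 and 0.97 and Plaat3 between -0.99 and -0.58, while Vdac1 stayed between 0.35 and 0.46.

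To compare levels between genes, log2 CPM was taken per kb of annotated exon. In Control lenses the order was Plaat3 (6.93 ± 0.22, SD, n = 3), Bnip3l (6.34 ± 0.17), Vdac1 (5.50 ± 0.12), Bnip3 (5.24 ± 0.19), Phb2 (4.20 ± 0.09), Pink1 (3.63 ± 0.09), Hif1a (3.50 ± 0.05) and Fundc1 (2.42 ± 0.04). These levels lay between percentile 68.9 (Fundc1) and percentile 98.6 (Plaat3) of the 13928 genes with an annotated length. The ranges of neighbors in this order overlapped for Vdac1 with Bnip3 and for Pink1 with Hif1a, and were apart for the other pairs. In Celf1cKO lenses the first 4 genes were Bnip3l (6.26 ± 0.08), Plaat3 (6.16 ± 0.42), Bnip3 (5.93 ± 0.54) and Vdac1 (5.89 ± 0.02). The order of these 4 could not be told within their spread, except that Bnip3l lay above Vdac1 in every library. Phb2, Pink1, Hif1a and Fundc1 followed in the same order as in Control lenses, with ranges that did not overlap.

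**Figure D3:**
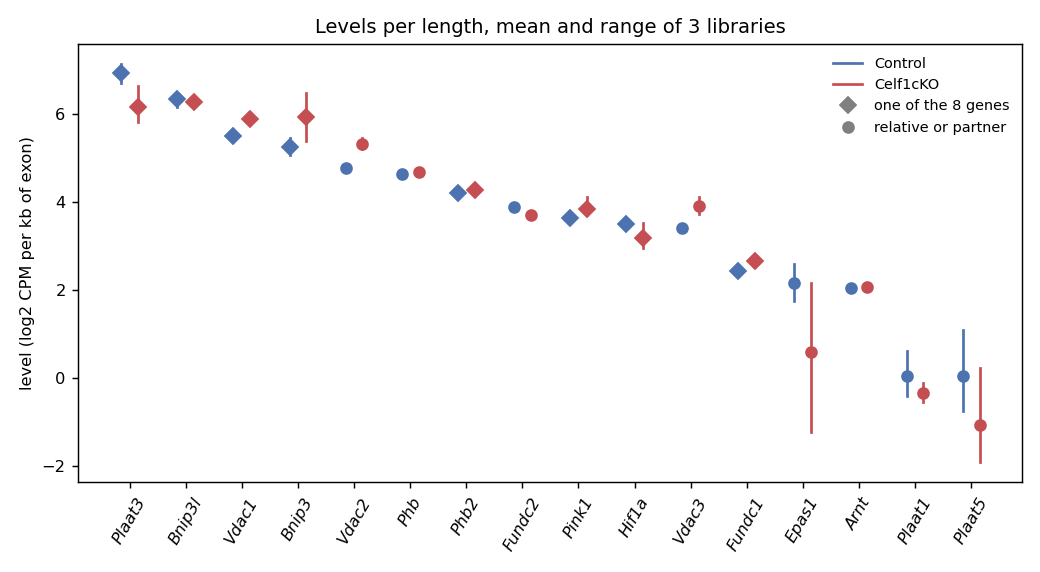
Levels per length (y axis, log2 CPM per kb of exon) of the 8 genes (diamonds) and of their relatives or partners (circles), as the mean and range of 3 Control (blue) and 3 Celf1cKO (red) libraries. Plaat3 and Bnip3l lead in Control lenses (6.93 and 6.34), and Plaat1 and Plaat5 lie lowest.

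Each gene was then set against its relatives or partners within the same library, in 9 pairs chosen after values of these data were known, 8 of which are given. Bnip3 lay below Bnip3l by 1.11 ± 0.23 log2 units per kb in Control lenses and by 0.33 ± 0.54 in Celf1cKO lenses. The difference between them was -0.99, -1.37 and -0.96 in Control libraries and 0.15, -0.91 and -0.22 in Celf1cKO libraries, so that Bnip3 exceeded Bnip3l in Celf1cKO library 1 only. The difference of 0.78 between the groups had an exact permutation p of 0.1, the smallest that 3 libraries against 3 can give, and 0.18 after adjustment over the 9 pairs. No pair could therefore pass the threshold. The level of Fundc1 minus that of its relative Fundc2 was -1.47 ± 0.07 log2 units per kb in Control and -1.06 ± 0.02 in Celf1cKO lenses, a difference of 0.41 (exact p = 0.1). Fundc2 itself was lower in each Celf1cKO library, with a log2 difference of -0.18 (adjusted p = 0.184).

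The other two outer-membrane channels of this family passed the test as well. Vdac2 was at 7.11, 7.01 and 6.92 log2 CPM in Control libraries and at 7.45, 7.70 and 7.56 in Celf1cKO libraries (log2 fold-change +0.56, adjusted p = 0.0164). Vdac3 was at 5.79, 5.82 and 5.94 against 6.16, 6.54 and 6.32 (+0.49, adjusted p = 0.0357). All 3 Vdac genes, Vdac1 included, passed the test, against 14.6% of expressed genes, and none passed the fold cut-off. The level of Vdac1 over Vdac2 was 0.74 ± 0.04 log2 units per kb in Control and 0.58 ± 0.12 in Celf1cKO lenses (exact p = 0.1), and that of Vdac1 over Vdac3 differed by -0.10 (exact p = 0.6). Phb, the partner of Phb2 in the prohibitin ring, showed a log2 difference of +0.04 (adjusted p = 0.785), and the level of Phb2 against Phb differed by 0.03 (exact p = 0.6).

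Hif1a was set against Epas1, which encodes the HIF-2 alpha subunit, and Arnt, the shared beta subunit. Epas1 was at 5.08, 4.23 and 4.64 log2 CPM in Control libraries and at 4.63, 1.26 and 3.30 in Celf1cKO libraries (log2 fold-change -1.58, adjusted p = 0.203). Epas1 is abundant in endothelium, and it was lowest in Celf1cKO library 2, where the vascular markers were lowest as well; their part in its level was not tested. Arnt showed a log2 difference of 0.01 (95% interval -0.20 to 0.23), and the level of Hif1a against Arnt differed by -0.34 (exact p = 0.1). Against Epas1 the level of Hif1a differed by 1.25, with an exact p of 0.3.

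The relatives of Plaat3 were expressed far below it. Plaat1 was at 0.04 ± 0.52 log2 CPM per kb in Control lenses and Plaat5 at 0.04 ± 0.94, against 6.93 for Plaat3. Plaat1 showed a log2 difference of -0.38 (adjusted p = 0.433) and Plaat5 of -1.10 (adjusted p = 0.309), both with overlapping groups. The level of Plaat3 over Plaat1 differed by -0.39 (exact p = 0.3).

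Next, lists of genes that act with the 8 genes were examined, 97 expressed genes without the 8 themselves. Of these, 6 were called as elevated (Sqstm1, Ulk1, Mff, Hk1, Rbx1 and Ldha) and 2 as reduced (Dnase2b and Cavin1), against 6.24% and 3.44% of expressed genes, and their median log2 fold-change was 0.04. Genes that appear in more than 1 list were counted in each of them. The counts and medians of single lists below include any of the 8 genes that belong to the list. The shares of 6.24% and 3.44% are also the background for the counts of each list below.

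Of 15 expressed mitophagy receptors and adaptors, 2 rose, none fell and the median log2 fold-change was 0.01. Sqstm1, the autophagy adaptor p62 that links ubiquitinated cargo to the autophagosome, was at 7.06, 6.96 and 6.94 log2 CPM in Control libraries and at 8.43, 9.49 and 9.04 in Celf1cKO libraries. The groups were far apart, and the log2 fold-change was +2.0 (SE 0.238, 4.01-fold, adjusted p = 0.0094). Ulk1, a kinase that starts autophagosome formation, rose from 4.69, 4.48 and 4.54 to 5.17, 5.79 and 5.80 (+1.02, adjusted p = 0.0174). Both are general autophagy genes and neither is a mitochondrial receptor. Nipsnap1, which encodes a mitochondrial protein that recruits autophagy adaptors, showed a log2 difference of -0.38 (adjusted p = 0.145). With the replicate block 3 of the 15 were called, Bnip3 among them, against 12.0% of expressed genes in either direction.

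Of 18 expressed genes of the PINK1 axis, none was called in either direction. Pgam5, a phosphatase of mitochondria, and Parl, the protease that cleaves PINK1, passed the test below the fold cut-off, with log2 fold-changes of +0.48 each (adjusted p = 0.0322 and 0.0398).

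Of 10 expressed genes of mitochondrial fission and fusion, Mff rose and none fell. Mff recruits the fission GTPase encoded by Dnm1l to the outer membrane. Its levels were 6.71, 6.57 and 6.53 log2 CPM in Control libraries and 7.23, 7.53 and 7.32 in Celf1cKO libraries (+0.75, adjusted p = 0.0107). Dnm1l (+0.42, adjusted p = 0.0223) and Slc25a46 (+0.56, adjusted p = 0.0393) passed the test and were higher by less than the fold cut-off.

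The list of VDAC pores and outer-membrane partners had the highest median, 0.39 over 9 genes. These include Vdac1, whose own log2 fold-change of +0.39 is the median. Hk1, the hexokinase that docks on VDAC, was called (4.57, 4.36 and 4.60 against 4.87, 5.38 and 5.27 log2 CPM, log2 fold-change +0.66, adjusted p = 0.0356). Together with the 3 Vdac genes, 4 of the 9 passed the test as higher, and none as lower, against 14.6% of expressed genes in either direction. Ppif, a regulator of the permeability transition pore in the matrix, showed a log2 difference of +0.60 (adjusted p = 0.0789), and Hk2, another hexokinase that binds mitochondria, of -0.45 (adjusted p = 0.0749).

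No gene was called among 7 prohibitins and inner-membrane proteases, where Stoml2 had the largest difference (-0.43, adjusted p = 0.064) and Oma1, a stress-activated protease, had -0.26 (adjusted p = 0.45). Among 19 expressed nuclear-encoded markers of mitochondrial mass none was called, and the median was 0.14. Of these, Tomm70a, an import receptor (+0.52, adjusted p = 0.017), and Atp5a1, a subunit of ATP synthase (+0.42, adjusted p = 0.0259), passed the test below the fold cut-off. Of 15 genes encoded by mitochondrial DNA that were searched by symbol, 0 were in the deposited table, so they could not be analysed.

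**Figure D4:**
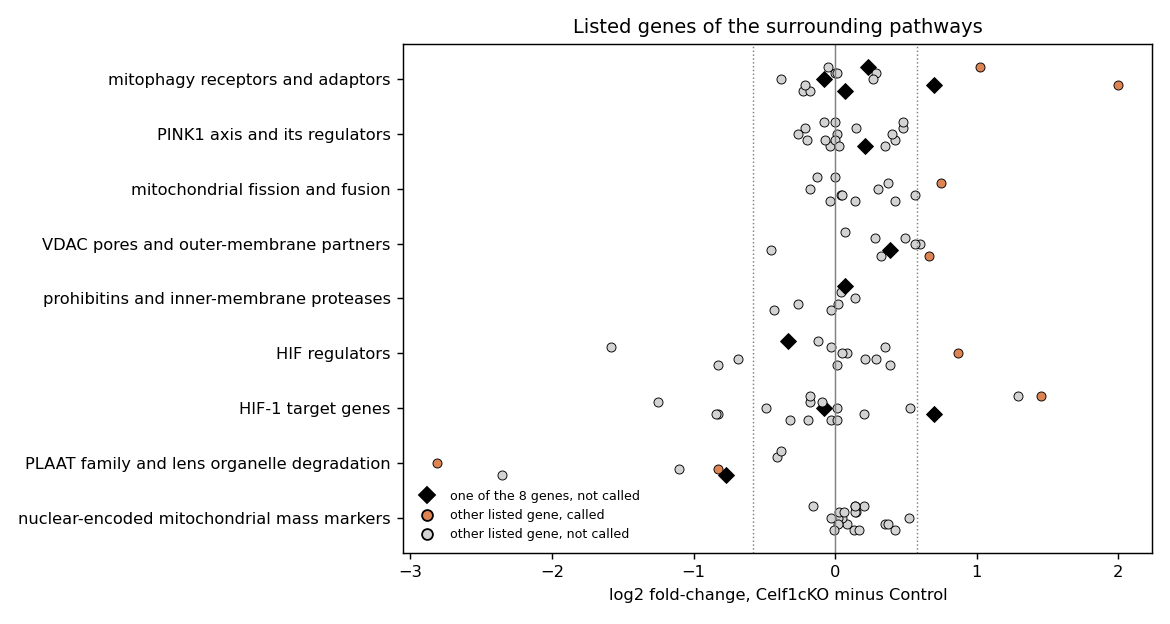
Log2 fold-change (x axis, Celf1cKO minus Control) of the listed genes in the table, by list (rows), with the 8 genes as black diamonds, called genes in orange and other genes in grey; dotted lines mark the fold cut-off of 0.58. The called genes spread over the lists, from Sqstm1 at +2.0 to Dnase2b at -2.81, and every gene of the PLAAT and lens organelle list lies below 0.

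Among the regulators of HIF, 1 of 14 rose and none fell. Rbx1, the RING subunit of the VHL ligase and of other cullin ligases, went from 5.47, 5.40 and 5.39 to 6.17, 6.38 and 6.34 log2 CPM (+0.87, adjusted p = 0.00888). Egln3, a prolyl hydroxylase that is itself a HIF target, showed a log2 difference of -0.83 that did not pass the test (adjusted p = 0.0984).

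The HIF-1 target genes had differences of both signs. Of 16 expressed targets, Bnip3 and Bnip3l included, 1 rose and none fell, against 6.24% and 3.44% of expressed genes. The median log2 fold-change of the targets was -0.06. Ldha, which encodes lactate dehydrogenase A, was at 7.88, 6.69 and 6.77 log2 CPM in Control libraries and at 8.93, 8.20 and 8.56 in Celf1cKO libraries (+1.45, adjusted p = 0.0343). Like Bnip3, it was highest in library 1 of each group. Higd1a, a hypoxia-induced mitochondrial protein, passed the test below the fold cut-off (+0.53, adjusted p = 0.0114). Ddit4, an inhibitor of mTORC1 signaling, had +1.29 (adjusted p = 0.0864), and the glucose transporter gene Slc2a1 had -0.84 (adjusted p = 0.0694). Car9, which lay below the expression cut-off, had -1.25 (adjusted p = 0.3). With the replicate block, Bnip3, Ldha and Ddit4 were called as elevated (Ddit4 with an adjusted p of 0.0214) and Slc2a1 as reduced (adjusted p = 0.0451). That is 3 of 16 as elevated and 1 as reduced, against 12.0% of expressed genes called in either direction with the block.

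In the list of the PLAAT family and lens organelle degradation, all 6 expressed genes, Plaat3 included, had negative log2 fold-changes, with a median of -0.80. Of the 6, 2 were called as reduced, against 3.44% of expressed genes. At an adjusted p-value under 0.05 with no fold cut-off, 3 passed as lower, against 14.6% of expressed genes in either direction. Dnase2b, the nuclease that degrades DNA in fiber cell nuclei, fell from 7.49, 7.57 and 7.83 log2 CPM to 5.99, 4.09 and 4.39 in the Celf1cKO libraries (-2.81, SE 0.445, adjusted p = 0.0141). As for Plaat3, Celf1cKO library 1 was the highest of its group. Cavin1, which encodes a coat protein of caveolae, fell from 4.89, 4.64 and 5.19 to 4.34, 3.98 and 3.89 (-0.83, adjusted p = 0.0294). Hsf4 passed the test below the fold cut-off, at 7.82, 7.98 and 7.87 against 7.46, 7.54 and 7.44 log2 CPM (-0.41, adjusted p = 0.021). Alox15, a lipoxygenase that acts on organelle membranes, was at 3.24, 3.41 and 4.04 against 3.09, -0.78 and 1.34 and did not pass (-2.35, adjusted p = 0.116). The list was drawn up with results of these data known, and its direction is a description. Reads on 15 crystallin genes, the main products of fibers, made up 45.5% to 46.6% of Control and 34.5% to 38.2% of Celf1cKO libraries, and the part of fiber content in the values of this list was not tested.

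The scaling of the libraries touches several of these differences. When libraries were scaled to total reads alone, the median log2 fold-change of expressed genes was 0.229 in place of 0.004, and Bnip3 (+0.92) and Vdac1 (+0.62) were called as elevated, 2 of 8 genes against 17.5% of expressed genes. On that scale Bnip3l changed sign (0.14), and relative to the median of 0.229 it remained lower.

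Finally, the genes with the profiles most like those of the 3 genes with the smallest adjusted p-values were found, by the root mean square difference of centered log2 CPM over 6 libraries among 10639 other expressed genes. Nearest to Vdac1 were Taok1 (0.0292), M6pr (0.0298) and Ergic2 (0.0307), and nearest to Plaat3 were Macroh2a1 (0.0667), Ace (0.07) and Lama1 (0.0777). Nearest to Bnip3 were Gpi1 (0.167), Vav3 (0.195) and Rbm11 (0.199). The measure is not scaled to the spread of a profile, so its values cannot be compared between the 3 genes. Among Celf1cKO libraries Bnip3 ranged over 1.09 log2 units and Vdac1 over 0.05. The profiles include the difference between the groups, so genes found in this way tend to share its direction by selection. Gpi1, which encodes the glycolytic enzyme glucose-6-phosphate isomerase, showed a log2 difference of +0.92 (adjusted p = 0.025 by limma). Vav3 had +0.58 (adjusted p = 0.25) and Rbm11 had +0.68 (adjusted p = 0.141).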

How the data were processed

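The deposited table held RNA-seq values of 3 Control and 3 Celf1cKO P0 lens libraries (strand-specific, paired-end). The authors aligned trimmed reads to GRCm38.p6 with STAR (2.7.8a), counted uniquely mapped reads per gene with featureCounts (2.0.0), kept genes above 0.2 CPM, normalized with edgeR and deposited log2 CPM values with a small prior count. The deposited average log2 CPM, the authors' value, set the expression cut-off. Columns with the authors' group means, fold-changes, F statistics, p-values and FDR were not used. Reads were recovered from the steps of the values, and 100% were whole within 0.1 read, giving 40694454 to 44387151 reads per library; 3 reads correspond to 0.0609 to 0.0807 CPM. The lowest value, -4.41, marks genes without a read. The annotation used by the authors for counting is not given in the sources used here.

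Groups were compared on log2 CPM with limma (3.58.1, R 4.3.3; variance trend, no block, two-sided), with Benjamini-Hochberg adjustment over 13931 genes. The cut-offs are those of the study's methods. Single values were compared by two-sided exact permutation tests, which cannot go below p = 0.1 for 3 libraries against 3. The procedure was tested on simulated data. Same-numbered samples of both groups shared deviations from the means of their groups (correlations 0.30, 0.42 and 0.35 for numbers 1, 2 and 3). The numbers were used as a block in an alternative fit only. The main fit and the permutation tests took the samples as unpaired. The block rests on the data and the shared numbers, not on a described design. The study calls the libraries biological replicates of pooled lenses.

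Members and gene lists were chosen with earlier results of these data known. Named were all members, their relatives, up to 4 called genes of each list by adjusted p and up to 2 uncalled genes by size of difference, and the 3 nearest profiles. Further genes with an adjusted p under 0.05 and those called with the block were named after their values were seen. As alternatives, the fit was run with robust empirical Bayes, without a variance trend, with the replicate block, on log2(CPM + 1) and with median centring, quantile normalization, total-count scaling, scaling without crystallin genes, voom on recovered reads, a fit of expressed genes only, other cut-offs and each library left out. Exon lengths, positions and UTRs came from GENCODE M21, promoters from RefSeq. A listed gene that is not reported here was kept in the counts and left out of the figures. Figures were drawn with matplotlib (3.10.9, Python 3.11.15).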

Additional observations from a re-analysis of the deposited data

How the results depend on the processing

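The number of the 8 genes called was 0, and it was 2 with the replicate block and 2 with total-count scaling, 1 with a fold cut-off of 0 and 1 at an adjusted p under 0.1, and 0 to 1 when a library was left out. The block changed no call of the 8 genes or Celf1 other than those of Bnip3 (0.70) and Plaat3 (-0.77), and among the other listed genes it moved the counts from 6 to 7 elevated and from 2 to 3 reduced. Without a variance trend, Vdac1 (0.39, adjusted p = 0.0882) and Celf1 (-1.60, adjusted p = 0.0693) no longer passed, and 3 listed genes were called as elevated and 1 as reduced. Total-count scaling gave 21 and 1, Bnip3 at 0.92 (adjusted p = 0.0381), turned Bnip3l to 0.14, and brought Fundc1 (0.46, adjusted p = 0.0258) and Phb2 (0.30, adjusted p = 0.0353) past the test. On that scale the median log2 fold-change of expressed genes was 0.229 in place of 0.004. With a library left out, log2 fold-changes ranged from 0.43 to 0.97 for Bnip3, -0.18 to -0.04 for Bnip3l, 0.22 to 0.25 for Fundc1, 0.08 to 0.29 for Pink1, -0.99 to -0.58 for Plaat3, -0.50 to -0.22 for Hif1a, 0.02 to 0.11 for Phb2, 0.35 to 0.46 for Vdac1 and -1.99 to -1.36 for Celf1, and listed genes called ranged from 0 to 10 as elevated and from 0 to 9 as reduced. Over all expressed genes, 1030 were called, 421 without a variance trend, 1867 with total-count scaling, 1916 without Celf1cKO library 1, and 1 each without Control library 2 or Celf1cKO library 3; the cause was not tested. Each of the 8 genes had at least 463 reads in every library.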
